A study of Saccharomyces cerevisiae with 16 samples.

Results

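The gene starts described here lie close to the ends of the 16 nuclear chromosomes of budding yeast (Saccharomyces cerevisiae). Of 6002 nuclear protein-coding genes of the R64 assembly, 377 started within 30 kb (30000 bp) of a chromosome end. Of these, 220 had a mean coverage of at least 5 reads per base over the 300 bp after the start, averaged over all time points. These 220 are the members, and they were selected on a measured value, so their level is given as a description. The comparison set, called genes elsewhere, held the 5493 of 5625 remaining genes that met the same minimum.

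The libraries came from H3K18ac chromatin immunoprecipitation (ChIP-seq) of cells going through the Yeast Metabolic Cycle (YMC), the respiratory oscillation of yeast in glucose-limited continuous culture. All were made from strain ZKY329, a CEN.PK MATa strain with SPT7-FLAG::natMX, which tags a subunit of the SAGA acetyltransferase complex. There was 1 library for each of 16 time points, from 48.32 to 51.95 h, and no control antibody or input was analysed here. The labels give the hour only, and the time points were grouped by the sampling scheme of the study. The oxidative span (OX) held time points 3 to 5, the building span (RB) time points 6 to 11, and the charging span (RC) time points 1, 2 and 12 to 16. With 1 library per time point, neighbouring time points of a span stand in for replicates, so the p-values measure the spread between time points of 1 culture series.

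Acetylation of lysine 18 of histone H3 is placed mainly by Gcn5, the catalytic subunit of SAGA, and marks the beginnings of active genes. Chromatin near yeast telomeres is known to be depleted of histone acetylation by the Sir proteins close to the repeats and by the Hda1 deacetylase farther inwards. Some of the genes there belong to families that grow and shrink quickly, with roles in the uptake and use of sugars, metals and vitamins, in cell adhesion and in stress.

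Summed coverage ranged from 332618297 to 477345719 per library, and mean nuclear coverage from 27.5 to 39.4 reads per base. Values below are relative coverage, which is the mean coverage of a start divided by the nuclear mean of that library. Every library had a ceiling of 102 reads per base, which compresses differences between highly covered starts. Mean coverage was over 51 reads per base in 103 members (46.8%), against 61.6% of genes elsewhere.

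The members are a selected share of the starts near the ends. The minimum was met by 58.4% of starts within 30 kb, against 97.7% of starts elsewhere. Of the 157 starts left out, 131 had a mean coverage under 0.5, and only 26 lay between 0.5 and 5. Starts under 0.5 made up 34.7% of those within 30 kb, against 2.03% elsewhere. Reads with several places in the genome were discarded, and reads of a CEN.PK strain were placed on the reference genome. Repeated sequence, sequence missing from the strain and low acetylation cannot be told apart in a start without coverage.

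The share of bases without any read was higher toward the ends. In the outermost 5 kb, 72.8% of 160000 bases had no read in any library, and between 25 and 30 kb this was 9.32%. Over the bases that did have reads, mean relative coverage was 0.332 in the outermost 5 kb, 0.785 from 5 to 10 kb, 0.907 from 10 to 15 kb and 1.03 from 15 to 20 kb. Beyond 60 kb it was 1.08.

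H3K18ac coverage of the members also increased inwards. Median relative coverage was 0.676 for the 5 members within 5 kb, 1.12 for 18 members from 5 to 10 kb, and 1.13 for 27 members from 10 to 15 kb. It was 1.43 for 43 members from 15 to 20 kb, 1.62 for 62 members from 20 to 25 kb and 1.71 for 65 members from 25 to 30 kb. The last value matches the 1.71 of 453 genes from 30 to 60 kb and lies close to the 1.75 of 5040 genes farther inside. For all 220 members the median was 1.50, against 1.74 for genes elsewhere, and 25 members (11.4%) were under 0.5, against 1.66% of genes elsewhere. Reads with several places in the genome were discarded, so a start that met the minimum can still lack reads over part of its window. The part of this in the increase inwards was not tested, and it cannot be told apart from lower acetylation here.

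**Figure D1:**
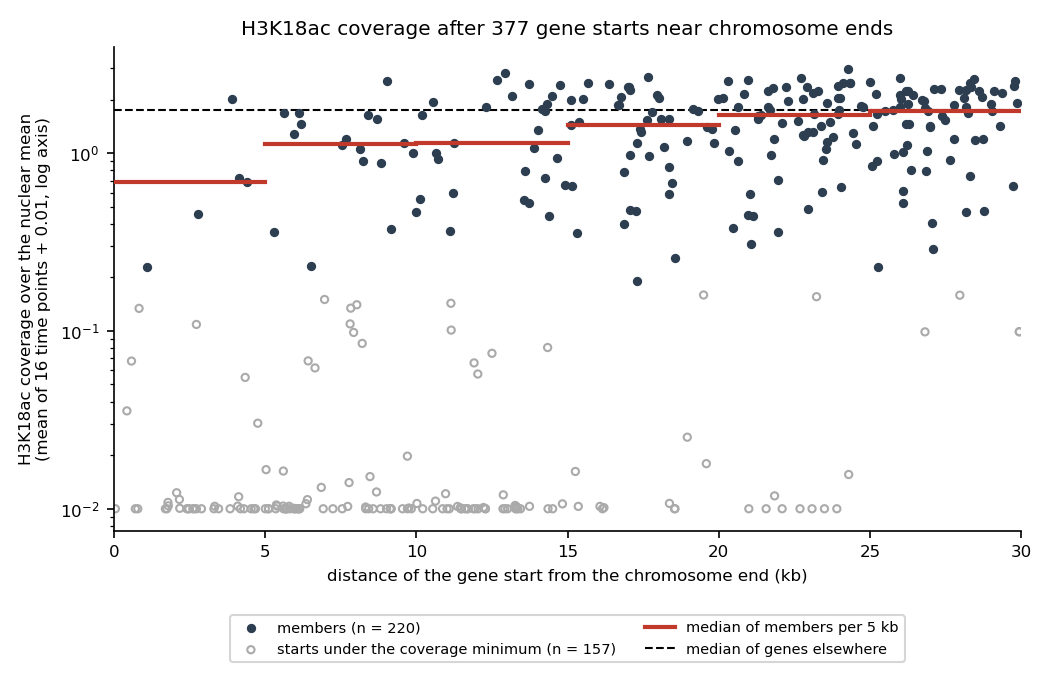
Each point is a gene start, with its distance from the chromosome end in kb on the x axis and its mean relative H3K18ac coverage over 16 time points, plus 0.01, on a log y axis. Filled points are the 220 members, open points the 157 starts under the minimum, red lines the members' medians per 5 kb (0.676 in the outermost, 1.71 in the innermost) and the dashed line the median of genes elsewhere, 1.74.

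The spread among members at the same distance was wide. YFR057W, known as a target of Sir-dependent silencing, started 1100 bp from the right end of chromosome VI (269061 to 269516) and had a relative coverage of 0.219 ± 0.054 (SD over 16 time points). COS12, of the COS family of membrane proteins, was at 0.442 ± 0.076 at 2789 bp from the left end of chromosome VII. In contrast, YIR042C, named here after its value was seen, reached 1.99 at 3905 bp from the right end of chromosome IX. Low values were not restricted to the outermost starts, since 11 of 127 members from 20 to 30 kb were also under 0.5.

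Of the 23 members within 10 kb, 12 changed over the spans (52.2%), against 64.1% of all genes tested, by the test described further on. The arsenic resistance cluster at the right end of chromosome XVI, chosen after its values were seen, shows how neighbours differed. ARR1, the regulator gene, had a relative coverage of 2.53 ± 0.29 at 9034 bp, ARR2, the arsenate reductase gene, 1.63 ± 0.14 at 8395 bp, and ARR3, the arsenite exporter gene, 1.04 ± 0.12 at 8144 bp. The level of ARR1 was higher in RC by 0.21 ± 0.06 (adjusted p = 0.00855), and ARR2 and ARR3 were not called over the spans (adjusted p of 0.408 and 0.448).

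Windows beside the start gave the same order. Over the 300 bp upstream the median relative coverage was 1.48 for members and 1.62 for genes elsewhere, and over the 300 bp that follow the region used here it was 0.993 and 1.09. Within 5 kb of an end these medians were 0.673 upstream and 0.416 in the following 300 bp.

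The highest levels belonged to DAL3 (2.96 ± 0.27), which acts in allantoin degradation, TYC1 (2.81 ± 0.40), RPN12 (2.68 ± 0.22), of the proteasome regulatory particle, and PRE5 (2.64 ± 0.24), of the proteasome core. These 4 starts lay between 12942 and 24271 bp from an end. The lowest were YLR460C (0.181 ± 0.042), the hexose transporter gene HXT11 (0.218 ± 0.062), YFR057W and YMR321C (0.222 ± 0.028). YLR460C and HXT11 stood just inside the coverage limit, at mean coverages of 5.81 and 7.05 reads per base, and FLO9 and HXT9 just outside it, at 4.76 and 4.82. At the distance limit, NDI1 (29806 bp, 2.52) and CDC50 (29858 bp, 1.90) were inside, and DAN4 (30011 bp, 0.352) and PDA1 (30057 bp, 2.52) outside.

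Chromosome ends differed from each other. Of 32 ends, both ends of chromosome I had no member, and only the right end of chromosome VI kept every start, 13 in number. Of its members, those named in this text had a relative coverage of 0.219 at YFR057W and 1.27 at IRC7 (5957 bp). Farther inwards, HXK1 (15112 bp) had 1.98 and RPN12 (17656 bp) 2.68. The values of YFR057W and RPN12 are the lowest and the highest of that end. Its other members are not listed here, so these values do not give the course along the end. Among the 25 ends with at least 5 members, the median ranged from 0.512 at the right end of XI to 2.06 at the right end of IX. The nearest member was over 10 kb away at 17 ends. Members whose gene pointed to the end had a median of 1.46 (n = 106) and those pointing away 1.54 (n = 114).

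**Figure D2:**
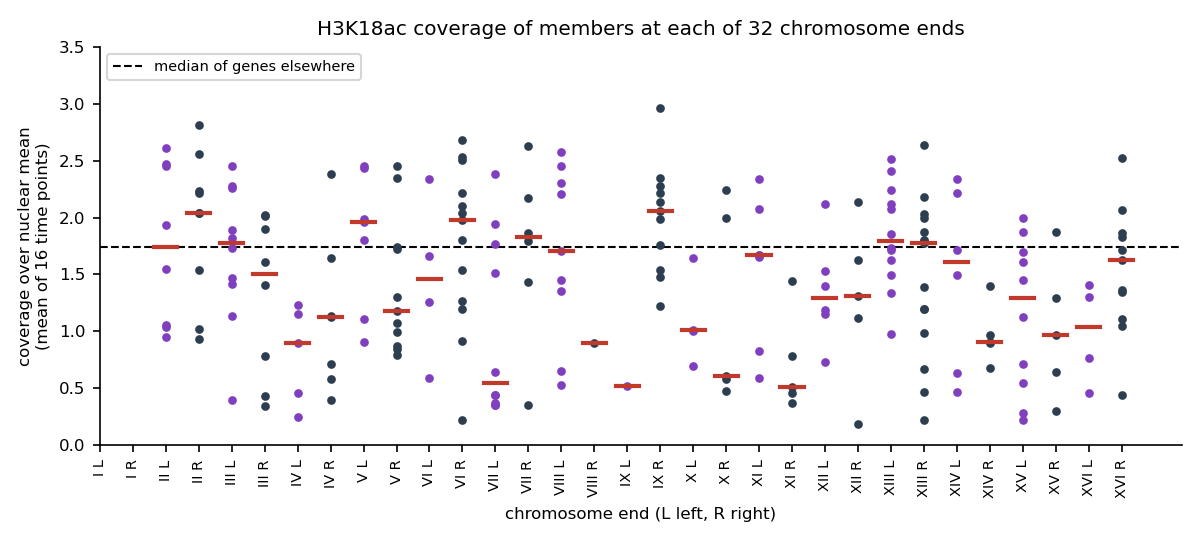
Each point is a member, placed by its chromosome end (L left, R right) on the x axis and its mean relative H3K18ac coverage over 16 time points on the y axis. Red lines are the medians of the ends and the dashed line is the median of genes elsewhere, 1.74. Both ends of I hold no member, and the ends with at least 5 members have medians between 0.512 and 2.06.

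The gap between members and genes elsewhere moved through the cycle. The members' median relative coverage lay between 1.35 (time point 11) and 1.57 (time point 3), and that of genes elsewhere between 1.59 (time point 12) and 1.94 (time point 3). On the scale log2(relative coverage + 0.1), the members' median minus that of genes elsewhere was -0.33 ± 0.04 in OX (SD, 3 time points), -0.24 ± 0.03 in RB (6) and -0.22 ± 0.05 in RC (7). It was widest at time point 4 (-0.37) and narrowest at time point 12 (-0.14). All 3 OX values were below all RB and RC values, but narrowly so at time point 3 (-0.291), against -0.285 at time point 2 of RC.

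Members at different distances did not share this course. Within 10 kb (23 members) the gap was widest at time point 2 (-0.96), stayed near that value through time point 3 (-0.95), and was narrowest at time point 11 (-0.38). From 10 to 20 kb (70 members) it was -0.36 at time point 3, -0.71 at time point 4 and -0.20 at time point 12. From 20 to 30 kb (127 members) it was widest at time point 4 (-0.25) and narrowest at time point 12 (-0.05). Genes from 30 to 60 kb stayed between -0.05 and 0.01. These are medians over genes with no test, and the group within 10 kb is small.

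**Figure D3:**
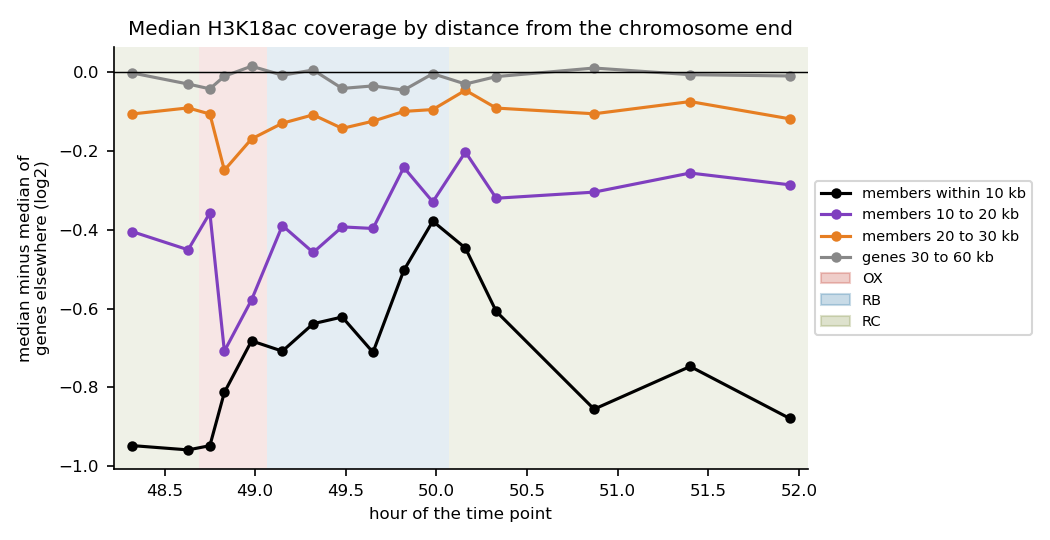
The x axis is the hour of the time point and the y axis the median log2(relative coverage + 0.1) of a distance group minus the median of genes elsewhere. Lines are members within 10 kb (lowest -0.96), from 10 to 20 kb (lowest -0.71) and from 20 to 30 kb (lowest -0.25), with genes from 30 to 60 kb in grey, and shading marks OX, RB and RC.

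Starts of low coverage shared part of this course wherever they lay. Among the 34 members with a mean coverage from 5 to 20, the median relative coverage averaged 0.367 in OX, 0.442 in RB and 0.409 in RC, and 153 genes elsewhere with the same coverage followed a like course with 0.419, 0.494 and 0.467. Among the 53 members with a mean coverage from 20 to 40, the values were 0.879 in OX, 0.936 in RB and 0.971 in RC. The 809 genes elsewhere of that coverage ran in the other order, with 1.10 in OX, 1.01 in RB and 0.981 in RC. The 66 members with a mean coverage from 40 to 60 had 1.61 in OX, 1.53 in RB and 1.60 in RC. Genes elsewhere of that coverage had 1.72, 1.54 and 1.59. From 60 to 80, the 56 members had 2.30, 2.07 and 2.23, above the 2.23, 2.05 and 2.17 of genes elsewhere. From 80 upwards, the 11 members had 2.59, 2.63 and 2.67, against 2.77, 2.57 and 2.81. The part of coverage in the distance pattern was not tested further.

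For each start, the spans were compared in 1 limma fit over all 5713 genes with enough coverage, with Benjamini-Hochberg adjusted p under 0.05. Of the 220 members, 126 (57.3%) changed over the 3 spans, against 64.1% of all genes tested. Another 84 members were called neither by this test nor by any contrast of a span with the mean of the others. This last count was not made for all genes tested, so it is no trait of the members. The median over members of the range from the lowest to the highest time point was 0.67 on the log2 scale, against 0.60 for genes elsewhere, and this order turned round with other settings given in the closing section.

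In OX, 41 members were higher (18.6%), against 31.4% of all genes tested, and 40 were lower (18.2%), against 14.6%. In RB, 22 members were higher (10%), against 6.07%, and 46 were lower (20.9%), against 23.4%. In RC, 50 members were higher (22.7%), against 23%, and 34 were lower (15.5%), against 25.3%. The median OX difference was -0.01 over members, against 0.07 over genes elsewhere. Of the members called higher in OX, 23 were also called lower in RC, and of those called lower in OX, 22 were also called higher in RC. These joint counts were not made for all genes tested. Each difference is a span minus the mean of the others, so the OX and RC differences share terms with opposite sign. The overlap is therefore given as a description and is no trait of the members.

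The scaling of the libraries moved the split of these calls. With median-of-ratios scaling, 29 members were higher and 53 lower in OX, and with quantile normalization 29 and 55. The shares higher in OX were then 13.2% of members under both scalings, against 24.8% and 21.1% of all genes tested. The shares lower were 24.1% and 25%, against 25.2% and 29.3%, so the larger share of members lower in OX did not hold there. With the correction for the ceiling the larger share held, with 53 members lower (24.1%, against 22.3%) and 37 higher (16.8%, against 28.8%). In RB median-of-ratios scaling gave 35 higher (15.9%, against 13.7% of all genes tested) and 27 lower (12.3%, against 13.8%). Quantile normalization gave 37 higher in RB (16.8%, against 17.5%, the opposite order to the main scaling) and 29 lower (13.2%, against 14.3%). The median OX difference of all genes was -0.04 with quantile normalization and 0.06 in the main scaling, and the members' median stayed below that of genes elsewhere, at -0.07 against -0.03. Of all calls in OX, the share that was higher was 50.6% for members and 68.3% for all genes in the main scaling, 35.4% and 49.6% with median-of-ratios scaling, and 34.5% and 41.9% with quantile normalization.

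**Figure D4:**
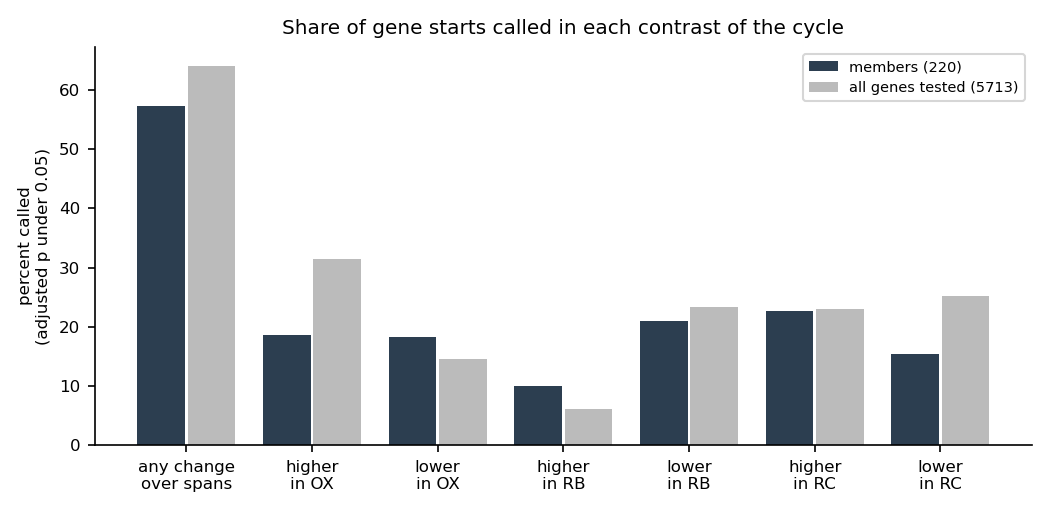
Bars show the percentage of the 220 members (dark) and of all 5713 genes tested (grey) called at an adjusted p under 0.05 for any change over the spans and for each direction in OX, RB and RC. Members called higher in OX reach 18.6%, against 31.4% of all genes, while shares higher in RC are 22.7% and 23%.

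Time point 4 carried much of the OX result, with a mean nuclear coverage of 29.6 that lay within the range of the other libraries. Of the 41 members higher in OX, 36 had their highest value of the cycle at time point 4, and 31 of the 40 lower members had their lowest value there. The same counts were not made for all genes called in OX. Without time point 4, 19 members were higher in OX (8.64%, against 15.5% of all genes tested) and 10 lower (4.55%, against 3.66%), of which 18 and 10 were among those called with it, and 93 changed over the spans (42.3%, against 48.6%). The shares thus dropped among all genes as well. Leaving out the same time point gave 13 members higher in RB (5.91%, against 4.55%), and leaving out time point 10 gave 14 (6.36%, against 4.83%). Time point 4 was also the most frequent time of the highest value elsewhere (31.6% of genes), against 20.9% of members. Time point 12 held the highest value of 10.5% of members, against 1.93% of genes elsewhere.

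A stricter count took only members whose time points in a span did not overlap the rest. In OX, 13 members (5.91%) lay above all other time points, against 16.9% of all genes tested, and 5 (2.27%) lay below, against 1.49%. In RB, 2 members lay above, against 0.718% of all genes tested, and 5 below, against 1.31%. In RC, 2 lay above and 2 below, each 0.909% of members, against 0.928% of all genes tested in either direction. The genes named next are those with the largest difference in each of these classes, at most 4.

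The members with the largest gain in OX were 2 neighbouring pairs, KRR1 with ADF1 and UPA2 with NIP1, so they do not count as separate loci. KRR1, a factor of small ribosomal subunit assembly (chromosome III, 22429 to 23379), had a relative coverage of 2.03, 2.92 and 2.34 at the 3 OX time points, against 0.824, 1.19 and 1.29 (lowest, median and highest) in RB and 0.732, 1.17 and 1.61 in RC. No RB or RC time point reached the OX values, and the OX difference was 0.99 ± 0.16 (SE, adjusted p = 0.000172). ADF1, whose start lies 205 bp from that of KRR1 on the other strand, had 2.53, 3.17 and 2.67 in OX, against medians of 1.88 in RB and 1.48 in RC (0.70 ± 0.14, adjusted p = 0.000735). NIP1, a subunit of translation initiation factor eIF3 (chromosome XIII, 892988 to 895426), had 2.50, 3.13 and 2.59 in OX, against medians of 2.00 in RB and 1.47 in RC (0.70 ± 0.18, adjusted p = 0.00516). UPA2, the neighbour of NIP1 (895716 to 896669), had 1.62, 2.15 and 2.11 in OX, against 0.995 and 1.08 (0.89 ± 0.11, adjusted p = 4.97e-05). All 4 peaked at time point 4. Without time point 4 the difference of NIP1 was 0.60 with an adjusted p of 0.0565.

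Of the 5 members that lay below all other time points in OX, MAL11, HXK1, PHR1 and FRE5 had the largest differences, and the fifth was DFP4 (-0.37 ± 0.10, adjusted p = 0.00909). MAL11, an α-glucoside permease (chromosome VII, 1073963 to 1075813), had 0.883, 0.531 and 1.02 in OX, against 1.30, 1.48 and 1.72 in RB and 1.16, 1.62 and 2.06 in RC (-0.90 ± 0.15, adjusted p = 0.000224). HXK1, a hexokinase (chromosome VI, 253592 to 255049), had 1.57, 0.662 and 1.38 in OX, against medians of 2.07 in RB and 2.29 in RC, with no other time point under 1.95 (-0.86 ± 0.14, adjusted p = 0.000243, and -0.51 without time point 4, adjusted p = 0.000676). PHR1, the DNA photolyase (chromosome XV, 1066839 to 1068536), had 1.09, 0.809 and 0.809 in OX, against medians of 1.37 in RB and 1.36 in RC (-0.57 ± 0.09, adjusted p = 0.000172). All 3 had their lowest value at time point 4. FRE5, a putative ferric reductase (chromosome XV, 1061564 to 1063648), had 0.453, 0.356 and 0.508, against medians of 0.598 in RB and 0.728 in RC (-0.55 ± 0.14, adjusted p = 0.00522). Its highest OX value was close to the lowest RC value, 0.516, and without time point 4 its adjusted p was 0.0711.

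Other members fell as far in OX but overlapped other time points, and the following 3 were picked after their values were seen. GTT1, a glutathione transferase gene, had 1.49, 0.587 and 0.579 in OX, against medians of 1.28 in RB and 1.86 in RC (-0.88 ± 0.17, adjusted p = 0.00089). STL1, a glycerol symporter gene, had 1.39, 0.613 and 0.995, against medians of 1.43 in RB and 2.03 in RC (-0.80 ± 0.16, adjusted p = 0.00097). AQY3, which codes for an aquaglyceroporin, had 1.33, 0.401 and 0.982, against 1.03 and 1.49 (-0.60 ± 0.22, adjusted p = 0.038). In each of the 3, time point 3 was within the range of RB and the drop came at time point 4. Without time point 4 the difference of STL1 was -0.52 (adjusted p = 0.0206) and that of AQY3 -0.16 (adjusted p = 0.549), while AQY3 had -0.92 without time point 3 (adjusted p = 0.00365). The call of AQY3 was also lost over the upstream region (adjusted p = 0.134), without time point 13 (0.0517), with no coverage minimum (0.0521) and with depth as a covariate (0.0511).

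In RB, the 2 members above all other time points were ZNF1 and YEL073C. ZNF1, a zinc cluster regulator of respiratory growth (chromosome VI, 28232 to 29629), had 1.92, 1.99 and 2.32 (lowest, median and highest) in RB, against 1.04, 0.498 and 1.90 in OX and 1.29, 1.55 and 1.87 in RC (0.67 ± 0.18, adjusted p = 0.0096). Its value at time point 5 was close to the lowest RB value, so the span is set apart from OX mainly by time points 3 and 4. YEL073C, at 7552 bp from the end of chromosome V, had 1.20, 1.26 and 1.33 in RB, against 0.959, 0.899 and 1.08 in OX and a median of 1.02 in RC (0.30 ± 0.05, adjusted p = 0.000875). Over the 300 bp upstream of its start the difference was 0.02 with an adjusted p of 0.703.

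Losses in RB were smaller. SGE1, a multidrug transporter gene (chromosome XVI, 934034 to 935665), had 1.10, 1.19 and 1.21 in RB, against 1.65, 2.08 and 1.33 in OX and 1.24, 1.31 and 1.44 in RC (-0.32 ± 0.07, adjusted p = 0.00367). YPR196W, a putative regulator of the MAL-activator family at the same end, had a median of 1.60 in RB, against 2.26, 1.97 and 1.86 in OX and a median of 1.96 in RC (-0.27 ± 0.05, adjusted p = 0.00127). SEA4, of the SEA complex, had a median of 1.38 in RB, against 1.61, 1.69 and 1.74 in OX and a median of 1.56 in RC (-0.24 ± 0.05, adjusted p = 0.00249). FZF1, which codes for a regulator of sulfite resistance, had a median of 1.75 in RB, against 2.29, 2.39 and 2.09 in OX and a median of 1.96 in RC (-0.24 ± 0.04, adjusted p = 0.000808). In all 4, RB held the lowest 6 values of the cycle.

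In RC, YHL041W (chromosome VIII, 17392 to 17841) had 1.35, 1.83 and 2.05 (lowest, median and highest), against 1.22, 0.895 and 0.930 in OX and a median of 0.942 in RB (0.77 ± 0.09, adjusted p = 0.000151). YML131W (chromosome XIII, 10198 to 11295) had 1.84, 1.95 and 2.37 in RC, against 1.50, 0.963 and 1.06 in OX and a median of 1.36 in RB (0.65 ± 0.09, adjusted p = 0.00037). Both were highest at time point 14 and lowest at time point 4. YER186C (chromosome V, 561705 to 562625) had a median of 1.40 in RC, against 1.69, 1.66 and 1.75 in OX and a median of 2.10 in RB (-0.40 ± 0.07, adjusted p = 0.000788). IRC7, which codes for a cysteine desulfhydrase, had a median of 1.08 in RC, against 1.28, 1.62 and 1.59 in OX and a median of 1.30 in RB (-0.32 ± 0.06, adjusted p = 0.000969). Over the 300 bp upstream of the start, the difference of YER186C was -0.07 with an adjusted p of 0.284.

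**Figure D5:**
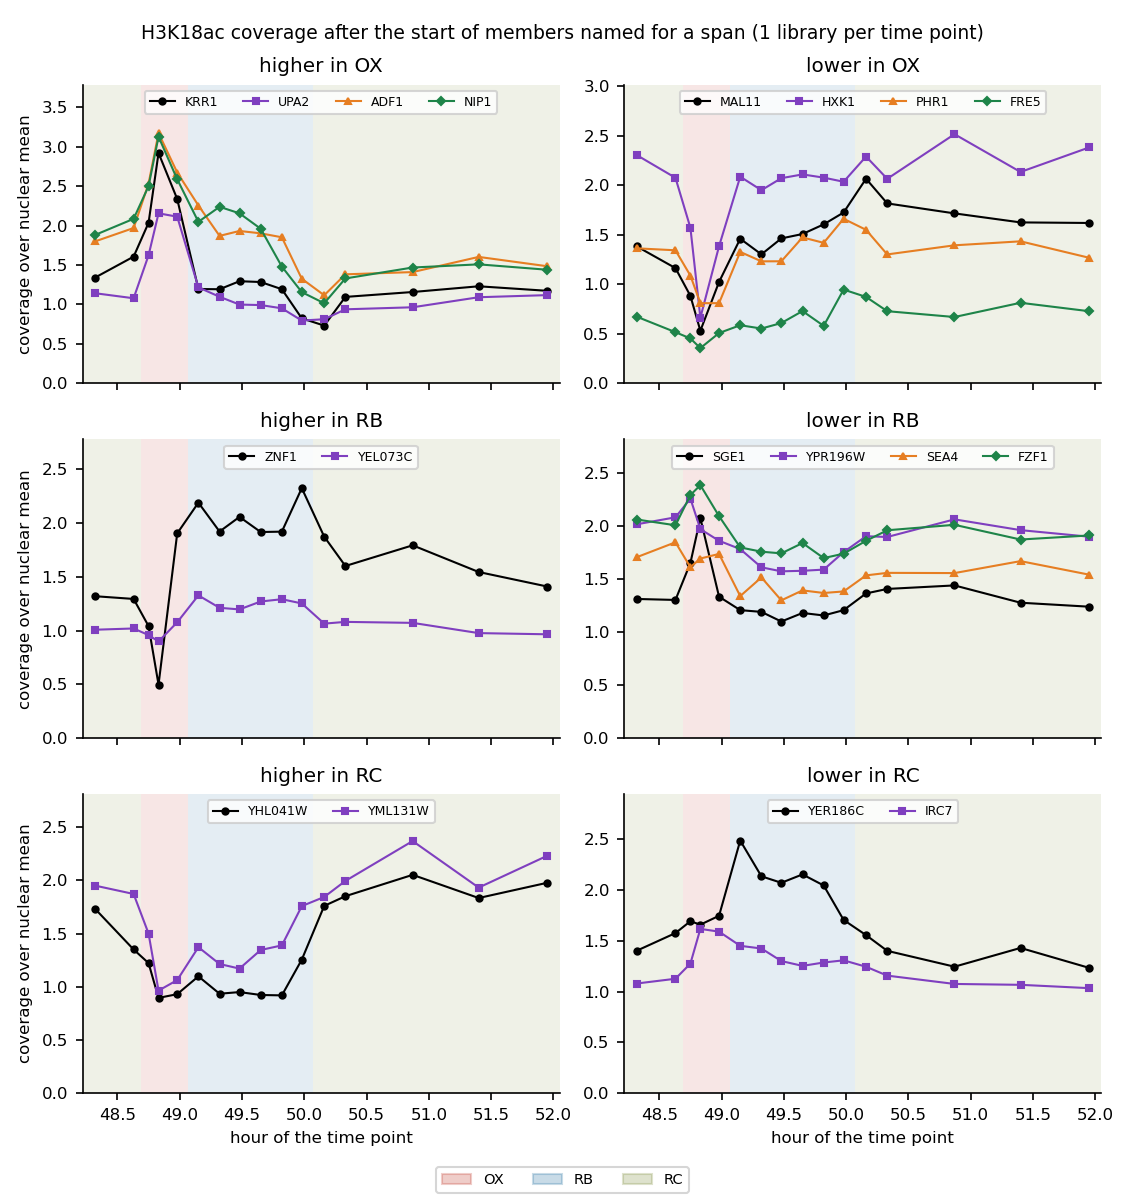
Relative H3K18ac coverage (y axis, 1 library per time point) against the hour (x axis) for the members with the largest difference in each span and direction, with shading for OX, RB and RC. KRR1 reaches 2.92 and HXK1 drops to 0.662 at time point 4, while YHL041W stays at or above 1.35 in RC only.

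Of the 13 lists of gene families typical of chromosome ends, 109 of 198 genes started within 30 kb and 37 were members, of which 17 changed over the spans (against 64.1% of all genes tested), 8 were lower in OX (against 14.6%) and 4 higher in OX (against 31.4%). The other 183 members were in none of these lists. The coverage minimum removed unequal shares of the lists. None of 19 seripauperin and anaerobic mannoprotein genes, none of 8 Y′ helicase genes, 1 of 9 thiamine, pyridoxine and biotin genes, 2 of 7 hexose transporter genes and 3 of 11 COS genes were members, against 8 of 9 genes of iron, copper and zinc uptake.

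The maltose, isomaltose and sucrose genes had 6 members of 13 within 30 kb, and 5 of the 6 changed over the spans, against 64.1% of all genes tested. In OX 4 were lower, against 14.6% of all genes tested, and none higher. In RC 4 were higher, against 23%, and none lower. Besides MAL11, the maltose permease gene MAL31 had 1.22, 0.764 and 1.51 in OX, against medians of 1.62 in RB and 1.64 in RC (-0.49 ± 0.12, adjusted p = 0.0031), and the MAL-activator gene MAL33, at the same end, had 2.11, 1.31 and 2.42, against medians of 2.75 in RB and 2.49 in RC (-0.49 ± 0.12, adjusted p = 0.0042). Without time point 4 the differences were -0.24 for both, with adjusted p of 0.0447 for MAL31 and 0.0822 for MAL33. IMA5, an isomaltase gene, had 0.921, 1.38 and 1.95 in RC, against 0.728, 0.392 and 0.691 in OX and 0.545, 0.669 and 1.07 in RB (RC difference 1.00 ± 0.17, adjusted p = 0.000766). Its range of 2.06 on the log2 scale was the largest of the list. MAL13, another activator gene, had the smallest range, 0.50, and was higher in RC by 0.25 ± 0.06 (adjusted p = 0.00327). IMA1 was at 0.351 and was not called. Some isomaltase and MAL genes have near-identical relatives. Where that is so, reads left after the discarding of multimapped reads cover only the distinct parts. Which of the 6 members this concerns was not tested.

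Of the 8 metal uptake members, 3 changed over the spans, against 64.1% of all genes tested. FET4, a low-affinity iron transporter gene, had 0.950, 1.68 and 1.39 in OX, against medians of 0.981 in RB and 0.838 in RC (0.48 ± 0.12, adjusted p = 0.0045). ZRT1, the high-affinity zinc transporter gene, had 0.423, 0.696 and 0.517 in OX, against 0.438 and 0.400 (0.31 ± 0.10, adjusted p = 0.022). FRE5 moved the other way, as given above, so the list had no common direction. Without time point 4 the difference was 0.32 for FET4 (adjusted p = 0.0872) and 0.15 for ZRT1 (adjusted p = 0.308), and with median-of-ratios scaling that of ZRT1 was 0.24 (adjusted p = 0.0855). ENB1, a siderophore transporter gene, had the smallest range (0.38) and was not called (adjusted p of the F test = 0.398).

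Among the alcohol and aryl-alcohol dehydrogenase genes, 3 of 5 members changed, against 64.1% of all genes tested. ADH6 had 2.29, 3.02 and 1.89 in OX, against medians of 1.67 in RB and 1.66 in RC (0.49 ± 0.09, adjusted p = 0.00043). Its difference was 0.32 without time point 4 (adjusted p = 0.00693) and 0.04 over the upstream region (adjusted p = 0.726), and its change over time was not called by the other time models (adjusted p from 0.103 to 0.581). AAD14 had the smallest range, 0.28, and an adjusted p of 0.186. The phosphate genes had 3 members, of which 2 changed over the spans, against 64.1% of all genes tested. PHO84, the high-affinity phosphate transporter gene, was lower in RC (0.631, 0.824 and 0.925, against 1.08, 1.54 and 1.06 in OX and a median of 1.06 in RB, -0.43 ± 0.09, adjusted p = 0.0018). GIT1, a glycerophosphoinositol transporter gene, had an RB difference of -0.18 ± 0.05 (adjusted p = 0.00785), and over the upstream region -0.09 (adjusted p = 0.261).

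JEN1, the lactate and pyruvate permease gene, had the largest range of the alternative carbon list. It had 2.42, 0.901 and 1.93 in OX, against medians of 2.50 in RB and 2.63 in RC (-0.57 ± 0.17, adjusted p = 0.0146), so that time point 4 alone stood far below the rest. Its F test had an adjusted p of 0.0278 with time point 4 and 0.361 without it, and its OX difference was -0.18 without it (adjusted p = 0.261) and -0.23 over the upstream region (adjusted p = 0.352). DLD3, a dehydrogenase gene of the same list, had an adjusted p of 0.0731, and under quantile normalization 0.00274. HXT8, a hexose transporter gene, was higher in RC, with 0.854, 1.30 and 1.64, against 0.850, 0.616 and 0.943 in OX and a median of 0.802 in RB (0.58 ± 0.13, adjusted p = 0.0021). HXT11, of the same family, was at 0.218 with an adjusted p of 0.139. The starts of HXT8 and IMA5 lie close together, at 26886 and 26085 bp from the left end of chromosome X. Their RC differences therefore do not count as separate loci.

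COS9 was the only one of 3 COS members that changed over the spans, against 64.1% of all genes tested. It had a median of 2.41 in RC, against 2.26, 1.73 and 1.92 in OX and a median of 1.70 in RB (0.33 ± 0.07, adjusted p = 0.002). COS12 and COS10 lay within 5 kb of an end and were not called, with adjusted p of 0.246 and 0.262. FLO10, a flocculin gene, had 0.196, 0.202 and 0.412 in OX, against medians of 0.379 in RB and 0.437 in RC, and was called lower in OX (-0.45 ± 0.16, adjusted p = 0.0295) but not over the spans (adjusted p = 0.0562). The OX call was lost without time point 3 (adjusted p = 0.164), without time point 4 (0.213), over the upstream region (0.101) and over 500 bp (0.0616). Without time point 5 the OX difference was -0.71 (adjusted p = 0.00229). The F test passed in 8 of its 30 other settings. BIO2, the biotin synthase gene, was high at 2.63 and not called (adjusted p = 0.257). None of the 3 stress genes, HSP31, GTT2 and OPT2, was called over the spans, against 64.1% of all genes tested. With 3 members in each, the COS and stress counts are no trait of these families.

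At the silent mating-type cassettes, HMRA1 was the only member. Its relative coverage was 2.02 ± 0.16, above the median of genes elsewhere, with 2.29, 1.89 and 1.83 in OX, a median of 1.87 in RB and a median of 2.08 in RC (adjusted p of the F test = 0.116). The HMLALPHA1, HMLALPHA2, HMRA2, MATALPHA1 and MATALPHA2 starts had no read in any library. The reference holds the alpha cassette at MAT and the strain is labelled MATa, so reads of the expressed a1 gene at MAT have HMRA1 as their only place, and the silent and the expressed copy cannot be told apart.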

How the data were processed

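H3K18ac ChIP-seq was measured in 16 libraries, 1 per time point. The deposited coverage signal gives, per the study's methods, the number of reads over each base (bedtools genomecov), after trimming with Trimmomatic 0.32, mapping to the S. cerevisiae reference, discarding of multimapped reads and removal of duplicates with SAMtools. The methods name Bowtie as the aligner, whereas the submitters' processing notes list STAR. The authors' deposited values carry no correction for depth or for H3.

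For each nuclear protein-coding gene of the RefSeq R64 table (coding regions, strand read from the locus tag), coverage was averaged over the 300 bp after the start, divided by the library's nuclear mean, and put on a log2 scale with a pseudocount of 0.1. Starts averaging 5 or more reads per base were fitted with limma 3.58.1 in R 4.3.3 (span as the only term, prior variance with a trend, Benjamini-Hochberg adjustment over 5713 genes). The fit was tested on simulated data. Differences are a span minus the mean of the others. The members and lists were chosen with earlier results of these data known.

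Named genes were, for each span and direction, up to 4 members with the largest difference among those called without overlap, the 4 highest and 4 lowest levels, the 2 nearest each limit on either side, and the largest and smallest range within each family list. Alternatives changed the pseudocount, coverage minimum, scaling, ceiling, region, distance, time points and model. Promoter motifs were not analysed here. Coverage of 1 library is limited by its depth, and no interval was computed, since overlapping reads are not independent counts.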

Additional observations from a re-analysis of the deposited data

How the results depend on the processing

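No paired analysis was possible because each time point had 1 library. The 18 signed differences of genes named for a span and 17 others printed kept their sign in every setting that gave one. The 18 were chosen for time points that did not overlap, so leaving out a time point could not change their sign. The settings of 20 and 40 kb used the main fit unchanged. The kept signs are thus in part fixed by the choice of genes and settings. The difference of DFP4 was not among those checked. The count of 126 members that changed over the spans was 67 with a cubic polynomial of the hour (30.5%, against 33.1% of all genes tested), 135 with one of the time-point number (61.4%, against 64.2%) and 156 with cosine and sine (70.9%, against 74.2%). It was 50 of 93 members within 20 kb (53.8%) and 212 of 355 within 40 kb (59.7%), against 64.1%. Within 20 kb, 14 members were higher in OX (15.1%, against 31.4%) and 21 lower (22.6%, against 14.6%), 9 higher in RB (9.68%, against 6.07%) and 16 lower (17.2%, against 23.4%), and 22 higher in RC (23.7%, against 23%) and 12 lower (12.9%, against 25.3%). Within 40 kb, against the same shares, 76 were higher in OX (21.4%) and 65 lower (18.3%), 28 higher in RB (7.89%) and 80 lower (22.5%), and 84 higher in RC (23.7%) and 58 lower (16.3%). In RB, 35 were higher and 27 lower with median-of-ratios scaling, 37 and 29 with quantile normalization, and 35 higher with the correction for the ceiling (15.9%, against 12.6%). Over the 300 bp upstream, 27 of 237 members were higher in OX (11.4%, against 24.6% of all genes) and 92 higher in RC (38.8%, against 37.5%). The cause was not tested. Leaving out each time point in turn gave 19 to 44 members higher in OX (8.64% to 20%), against 15.5% to 33.9% of all genes tested. It gave 10 to 48 members lower in OX (4.55% to 21.8%), against 3.66% to 20.1%. In RB, 13 to 33 members were higher (5.91% to 15%), against 4.55% to 8.38%. The shares of all genes tested thus moved as well.

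The members' median level minus that of genes elsewhere, -0.21 on the log2 scale, was -0.13 with a pseudocount of 1, -1.42 with no coverage minimum, -0.074 with a minimum of 20, -0.31 with the correction for the ceiling, -0.43 within 20 kb and -0.11 within 40 kb, and was negative in every setting. The difference of median ranges, 0.07, was 0.040 with a minimum of 20 and 0.13 with median-of-ratios scaling. It turned to -0.038 with a pseudocount of 1, -0.13 with no minimum and -0.045 with the correction for the ceiling, so the order of the ranges depends on the setting.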
